A study of Mus musculus with 59 samples.

Results

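Levels of 10 genes of endoplasmic reticulum quality control were followed across 59 arrays of stem cell-derived motor neuron cultures that had been exposed to mouse serum. They were chosen by name from the components of the degradation machinery and the stress sensors: Syvn1, Sel1l, Derl1, Derl2, Herpud1, Edem1, Os9, Xbp1, Ern1 and Atf6. Of these 10 genes, 8 matched a row by symbol among the 19613 genes measured. No row matched Derl1 or Atf6 by symbol or RefSeq synonym, and they were not analysed here. The 8 genes had mean levels above the 59.4th percentile of all genes.

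Indicator cells were embryoid bodies, aggregates of differentiating cells, made from the HBG3 HB9-eGFP mouse embryonic stem cell line, in which a motor neuron gene's promoter drives a fluorescent protein. They were exposed for 24 h to serum from 1 of the 2 kinds of mice below and hybridised to Affymetrix mouse exon arrays. Serum for 29 arrays came from males hemizygous for a mutant human SOD1 transgene that causes a motor neuron disease, taken before symptoms (carrier serum). Serum for the other 30 arrays came from littermates without the transgene (non-carrier serum). All donors were F1 progeny of C57BL/6 and SJL, and the labels give 9 weeks for 53 arrays and 10 weeks for 6. The cultures were the same for both kinds of serum, carried no SOD1 transgene, and were mixtures in which only part of the cells were motor neurons. From their titles the arrays were put into 9 runs, each holding both kinds of serum. These were motorneuron (3 carrier and 4 non-carrier arrays), HB9MNs (2 and 2), A (3 and 3) and B (3 and 3). The rest were C (6 and 5), D (3 and 4), E (3 and 3), F (3 and 3) and 10-week (3 and 3). The titles in runs A to F share a form and name no run. Those runs were inferred from the order of the array numbers and lettered here. The deposited values are intensities, with array medians from 151 to 183, analysed as log2, and a difference of 1 on that scale is 2-fold. No p-value here measures more than the spread between arrays within runs, and nothing in the labels says which arrays shared a donor or a culture.

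Proteins that fail to fold in the endoplasmic reticulum are carried back to the cytosol, tagged with ubiquitin and destroyed by the proteasome, a route called ER-associated degradation. The HRD1 complex is its best-known gate: SYVN1 (HRD1) is the ubiquitin ligase, SEL1L its partner and scaffold, the derlins form the membrane channel with it, HERPUD1 is a membrane protein that helps assemble it, and OS9 and EDEM1 deal with the sugars that mark glycoproteins for disposal. The load of unfolded protein is read by membrane sensors, among them IRE1 (gene Ern1), which splices Xbp1 mRNA to yield an active transcription factor, ATF6, which is cut loose to enter the nucleus, and PERK, which slows translation and raises ATF4. In motor neurons this stress response has been studied because mutant SOD1 misfolds. The deposited table holds 1 value per gene, by the authors' methods the mean over its exons. Neither Xbp1 splicing nor the activity of a sensor protein could therefore be seen.

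Of the 8 genes, 2 had a promoter with a match to any of the motifs named for this response, as did 4.13% of all promoters. Herpud1 and Sel1l are shown because their levels differed by serum, and Syvn1 because it held the other match. The 250 bases before each gene start were taken from RefSeq (GRCm38.p6) and both strands were searched for 4 motifs. These were ERSE (CCAAT, any 9 bases, CCACG), ERSE-II (ATTGG, any 1 base, CCACG), UPRE (TGACGTGG) and CARE (TGATG, any 1 base, AA), the first 3 named for ATF6 and XBP1 and the last for ATF4 and its partners. Capitals mark matches.
Herpud1, chr8:94386179-94386428, plus strand: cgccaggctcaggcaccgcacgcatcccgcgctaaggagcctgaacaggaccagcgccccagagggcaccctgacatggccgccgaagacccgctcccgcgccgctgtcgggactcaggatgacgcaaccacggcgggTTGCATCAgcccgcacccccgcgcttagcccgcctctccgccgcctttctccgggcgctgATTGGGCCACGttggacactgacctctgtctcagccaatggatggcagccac
Syvn1, chr19:6046326-6046575, plus strand: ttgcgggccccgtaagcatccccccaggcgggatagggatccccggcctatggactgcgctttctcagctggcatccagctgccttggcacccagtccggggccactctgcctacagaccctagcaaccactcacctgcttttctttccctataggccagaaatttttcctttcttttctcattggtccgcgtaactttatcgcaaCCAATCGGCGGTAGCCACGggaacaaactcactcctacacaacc
Sel1l, chr12:91849158-91849407, minus strand: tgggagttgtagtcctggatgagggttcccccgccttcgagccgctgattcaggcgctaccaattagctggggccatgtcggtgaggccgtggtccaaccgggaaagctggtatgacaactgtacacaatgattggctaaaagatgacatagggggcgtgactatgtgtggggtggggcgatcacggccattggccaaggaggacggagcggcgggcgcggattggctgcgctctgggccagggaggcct
Herpud1 held a match to CARE on the opposite strand, read there as TGATGCAA, from base 112 to base 105 before the start, and a match to ERSE-II (ATTGGGCCACG) from base 52 to base 42. Syvn1 held a match to ERSE (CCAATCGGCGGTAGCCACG) from base 44 to base 26. Sel1l, Derl2 (2 starts), Edem1, Os9, Xbp1 and Ern1 held none of these letters in this window, and no promoter of Derl1 or Atf6 was in the table. Among all 32851 promoters of the table, ERSE-II was found in 0.0304% (10 promoters), ERSE in 0.113%, UPRE in 0.563% and CARE in 3.45%. No 2 of the matches overlapped. A match is a description of the sequence and does not show a bound factor.

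Herpud1 was lower with carrier serum and had the largest change of the 8 genes. Its log2 intensity lay between 8.09 and 9.46 with carrier serum (median 8.73, mean 8.80 ± 0.32, SD, n = 29) and between 8.50 and 9.88 with non-carrier serum (median 9.14, mean 9.11 ± 0.40, n = 30). The 2 groups overlapped over most of their range when runs were pooled. With the run as a block, the level was lower by 0.30 on the log2 scale with carrier serum (change -0.30, SE 0.058, 95% interval -0.41 to -0.18), or 81.4% of the non-carrier level. The change passed the threshold (limma adjusted p = 0.00282) and ranked 34th of all genes by p. A permutation test of the labels within runs (100000 permutations, two-sided) gave p = 1e-05, the smallest that number can give. Herpud1 was among the genes the study had chosen for its classifiers. That choice was taken to rest on runs other than E and F, which the labels do not say. Its direction in those other runs is not independent evidence.

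The Herpud1 difference was far from equal between runs. In run B, carrier arrays measured 8.38, 8.71 and 8.74 and non-carrier arrays 9.16, 9.35 and 9.74, a mean difference of -0.81. In run E, carrier arrays measured 8.09, 8.73 and 8.74 and non-carrier arrays 8.99, 8.99 and 9.53, a mean difference of -0.65. In both runs every carrier array was below every non-carrier array, as for 5.26% of all genes in run B and 5.08% in run E. In run D, carrier arrays measured 8.56, 8.76 and 8.85 and non-carrier arrays 9.06, 9.11, 9.31 and 9.46, a mean difference of -0.51. In run F, carrier arrays measured 8.90, 9.07 and 9.15 and non-carrier arrays 9.44, 9.50 and 9.56, a mean difference of -0.45. These 4 runs had the largest differences, and their groups did not overlap in any of them (7.64% of all genes in run D and 13.1% in run F lay wholly below).

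The other runs had smaller differences. In the 10-week run, carrier arrays measured 9.43, 9.43 and 9.46 and non-carrier arrays 9.48, 9.56 and 9.88, a mean difference of -0.20. In run A, carrier arrays measured 8.51, 8.52 and 8.59 and non-carrier arrays 8.68, 8.70 and 8.70, a mean difference of -0.15. In HB9MNs, carrier arrays measured 8.67 and 8.71 and non-carrier arrays 8.74 and 8.83, a mean difference of -0.10. The groups were apart in these 3 runs as well, by narrow gaps, as were 8.3% of all genes in the 10-week run, 8.07% in run A and 31.7% in HB9MNs with carrier arrays below. In the motorneuron run, carrier arrays measured 9.00, 9.13 and 9.14 and non-carrier arrays 8.71, 9.25, 9.26 and 9.30, so that 1 low non-carrier array lay below all carrier arrays and the mean difference was -0.036. In run C, 6 carrier arrays (8.54 to 8.80) and 5 non-carrier arrays (8.50 to 8.82) covered the same range, with a mean difference of 0.034.

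Carrier arrays therefore had the lower mean in 8 of 9 runs, which 5.45% of all genes did in at least 8 runs, and lay wholly below the non-carrier arrays in 7 of 9 runs, which 0.0408% of all genes (8 genes) did in at least 7. The variation between runs was tested with an F test of serum by run in limma, which called 0.127% of all genes. Herpud1 had F = 4.64 and an unadjusted p = 3.6e-04, but an adjusted p of 0.122. No member passed that test after adjustment (0 of 8 by limma), and 1 of 8, Herpud1, had an unadjusted p under 0.05, as did 7.94% of all genes.

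**Figure D1:**
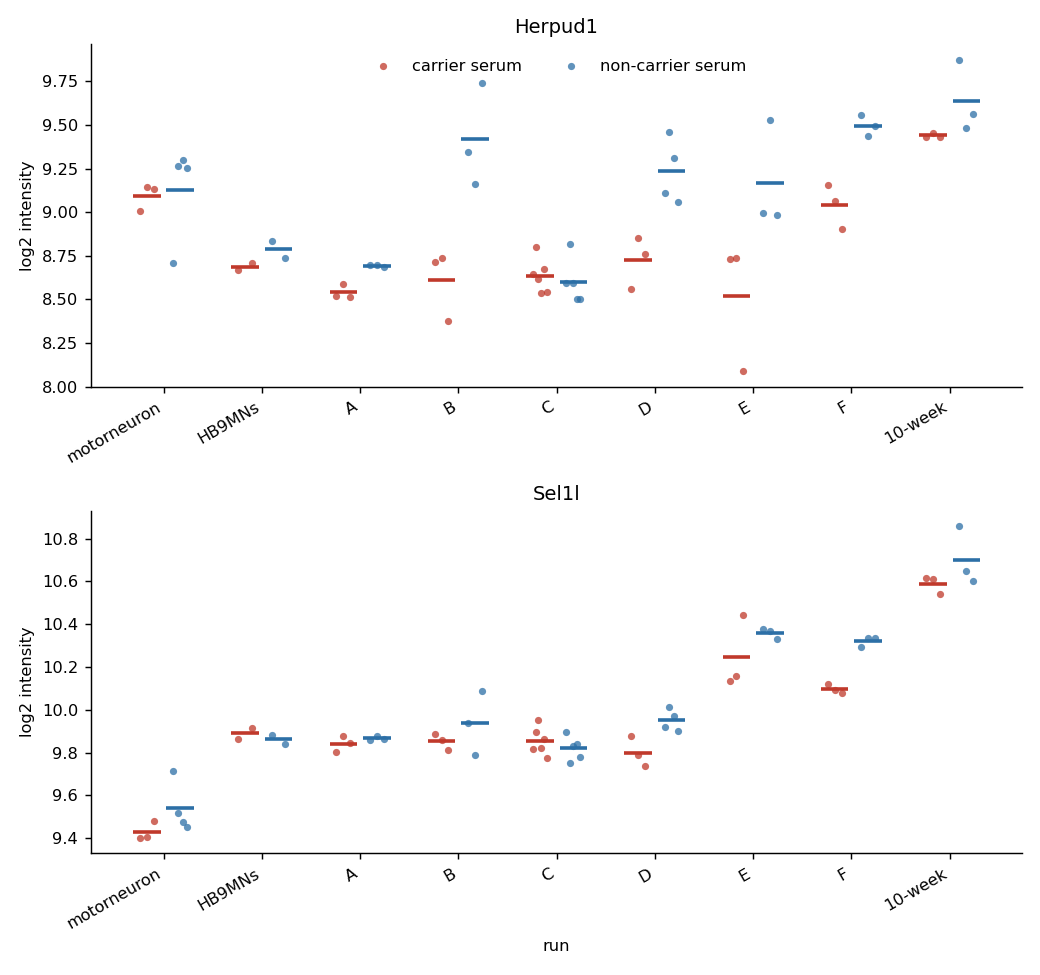
Log2 intensity of Herpud1 (top) and Sel1l (bottom) on each of the 59 arrays, by run on the horizontal axis, with carrier serum in red and non-carrier serum in blue; each point is an array and each bar the mean of its run and serum. The red and blue Herpud1 points were apart in 7 of 9 runs and mixed in the motorneuron run and run C, while Sel1l moved more between runs (9.49 to 10.65) than between kinds of serum.

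Runs E and F were taken as the 12 arrays that the study did not use to choose Herpud1. They gave a change of -0.55 (SE 0.13, limma unadjusted p = 0.00118). After adjustment over all genes this did not pass (adjusted p = 0.198), in a comparison of 12 arrays where 0.0867% of all genes were called lower. The other 7 runs gave -0.23 (SE 0.061, adjusted p = 0.0718), where 0.163% of all genes were called lower. In each of these comparisons 0 of 8 members were called by limma, with 2 of 8 at an unadjusted p under 0.05 in runs E and F (Herpud1 and Sel1l; 12.8% of all genes) and 4 of 8 in the other 7 runs (Herpud1, Sel1l, Os9 and Xbp1; 12.4% of all genes). The difference between both changes was -0.32 (SE 0.14, p = 0.0246, adjusted p = 0.505), a test in which 0% of all genes were called (0 by limma, and 1718, or 8.76%, at an unadjusted p under 0.05). Herpud1 and Sel1l were the 2 of 8 members with an unadjusted p under 0.05 in it.

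Sel1l, the scaffold of the HRD1 ligase, was called lower with a much smaller change. Its log2 intensity ranged from 9.40 to 10.62 with carrier serum (median 9.88, mean 9.95 ± 0.31, n = 29) and from 9.45 to 10.86 with non-carrier serum (median 9.90, mean 10.01 ± 0.34, n = 30). The pooled groups overlapped almost wholly, and run accounted for 92.8% of the variance. Within runs the change was -0.080 (SE 0.023, 95% interval -0.13 to -0.034), or 94.6% of the non-carrier level, with limma adjusted p = 0.0436 and permutation p = 7e-04. Carrier arrays had the lower mean in 7 of 9 runs. They lay wholly below in run F (10.08, 10.09 and 10.12 against 10.29, 10.33 and 10.34) and in run D (9.74, 9.79 and 9.88 against 9.90, 9.92, 9.97 and 10.01). Such separation was common, at 13.1% of all genes in run F and 7.64% in run D. In runs C and HB9MNs the mean difference was above 0, at 0.034 and 0.028.

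The call of Sel1l was at the edge of the threshold. Leaving out 1 array at a time kept it in 29 of 59 cases, with adjusted p from 0.0204 to 0.0732. The call was lost when any 1 array of run F was left out. It was lost with arrays centred on their medians (adjusted p = 0.0652) or quantile normalized (adjusted p = 0.0832), and its change stayed below 0 in every alternative, from -0.17 to -0.057.

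The remaining members of the HRD1 complex did not pass the test. Syvn1, the ligase itself, measured 8.27 to 9.15 with carrier serum (median 8.80) and 8.60 to 9.18 with non-carrier serum (median 8.82), a change of -0.019 (SE 0.026, 95% interval -0.071 to 0.033, adjusted p = 0.686). The lowest of these, 8.27, was carrier replicate 23 of run E, which also gave the lowest Herpud1 value. Derl2, a derlin, measured 7.54 to 8.26 with carrier serum (median 7.87) and 7.51 to 8.13 with non-carrier serum (median 7.90), a change of 0.0084 (SE 0.033, 95% interval -0.058 to 0.075, adjusted p = 0.900). The pooled groups of both genes overlapped over most of their range. Within runs, the Syvn1 carrier arrays lay wholly above the others in run B (5.27% of all genes) and wholly below them in HB9MNs (31.7%). Both intervals end above the change of Herpud1. The 2 members of 8 called lower, Herpud1 and Sel1l, are both in this complex, and 1.65% of all genes were called lower (323 lower and 134 higher, or 264 and 180 with quantile normalization).

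The glycoprotein-handling members had small changes. Os9, a lectin that hands trimmed glycoproteins to the HRD1 complex, measured 8.73 to 9.52 with carrier serum (median 9.23) and 8.77 to 9.54 with non-carrier serum (median 9.30). Its change was -0.052 (SE 0.021, 95% interval -0.094 to -0.011, limma unadjusted p = 0.0150, unadjusted permutation p = 0.00964). The limma adjusted p of 0.149 missed the threshold. Os9 had a lower mean in 7 of 9 runs, and its groups overlapped in 8 of 9. Only in run B were all carrier arrays below all non-carrier arrays (5.26% of all genes). With array weights Os9 was called lower (-0.057, limma adjusted p = 0.0287), in a fit that called 7.34% of all genes lower. Edem1, which trims mannose from misfolded glycoproteins, measured 7.67 to 8.09 with carrier serum (median 7.89) and 7.63 to 7.98 with non-carrier serum (median 7.86), a change of 0.022 (SE 0.019, 95% interval -0.017 to 0.060, adjusted p = 0.512).

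The sensor genes did not pass either. Xbp1, the transcription factor gene whose mRNA IRE1 splices, measured 10.07 to 10.93 with carrier serum (median 10.64) and 10.04 to 10.80 with non-carrier serum (median 10.59). Its change was 0.035 (SE 0.017, 95% interval -0.00037 to 0.070, limma unadjusted p = 0.0524, adjusted p = 0.247). The unadjusted permutation p was 0.0394. Xbp1 had a higher mean in 6 of 9 runs. All its carrier arrays lay above all non-carrier arrays in run B (means 10.90 and 10.75, 5.27% of all genes) and in HB9MNs (means 10.69 and 10.62, 17.2% of all genes). Ern1, the sensor IRE1, measured 7.90 to 8.38 with carrier serum (median 8.24) and 7.79 to 8.50 with non-carrier serum (median 8.24), a change of -0.015 (SE 0.018, 95% interval -0.052 to 0.022, adjusted p = 0.642). Their groups overlapped in 7 and 8 of 9 runs. No member was called higher (0 of 8 by limma), while 0.683% of all genes were. The 3 of 8 members with an unadjusted limma p under 0.05, beside 20.7% of all genes, were the lower Herpud1, Sel1l and Os9. The median change of the 8 members was -0.017 against 0.016 for all genes.

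**Figure D2:**
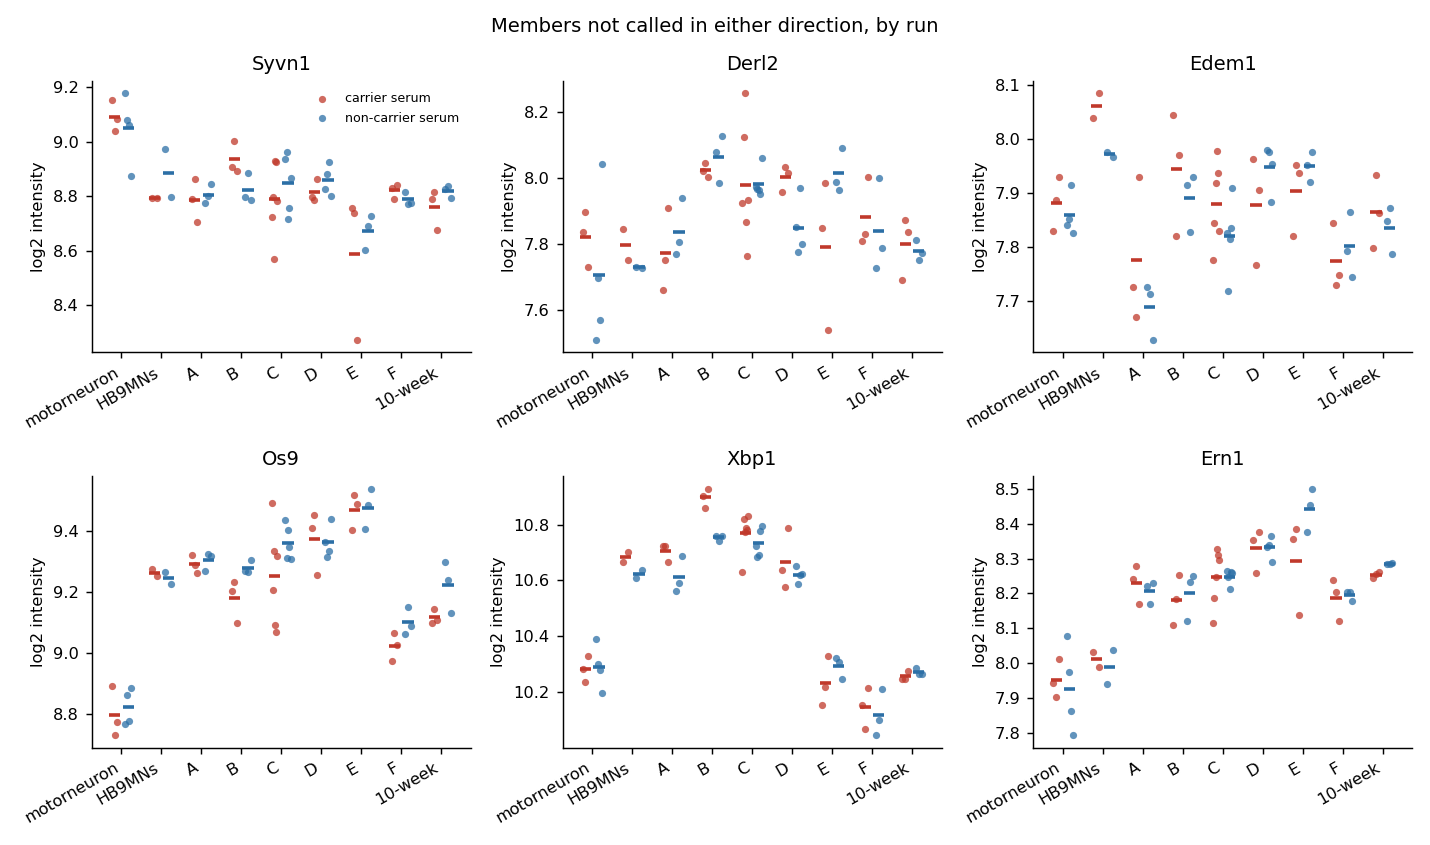
Log2 intensity of Syvn1, Derl2, Edem1, Os9, Xbp1 and Ern1 on each array, by run, with carrier serum in red and non-carrier serum in blue; bars are means of a run and serum, and each panel has its own vertical axis. In most runs the colours are mixed, and the run sets the level: Xbp1 runs from 10.13 in run F to 10.83 in run B.

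**Figure D3:**
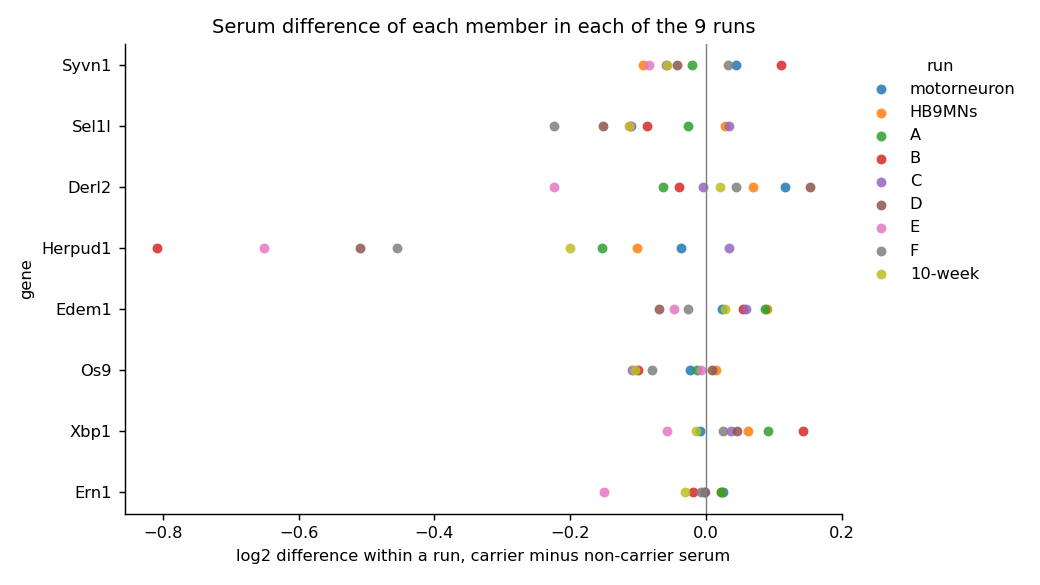
Difference of the mean log2 intensity, carrier minus non-carrier serum, for each of the 8 genes (rows) in each of the 9 runs (colours). Herpud1 spreads from -0.81 (run B) to 0.034 (run C), while no other gene reaches beyond -0.22 or 0.15.

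Levels differed more by run than by serum in all 8 genes. Run accounted for 94.4% of the variance of Xbp1, 92.8% of Sel1l, 85.8% of Os9, 81.6% of Ern1, 58.0% of Syvn1, 56.7% of Herpud1, 54.3% of Edem1 and 40.0% of Derl2, against a median of 62.5% over all genes. Serum accounted for 16.3% of the variance of Herpud1 and at most 1.04% of each of the others (median of all genes 0.762%). The genes did not move together between runs. Sel1l was lowest in the motorneuron run (run mean 9.49) and highest in the 10-week run (10.65), Herpud1 lowest in run A (8.62) and highest in the 10-week run (9.54), and Xbp1 lowest in run F (10.13) and highest in run B (10.83). The motorneuron run had the lowest means of Sel1l, Os9 (8.81), Ern1 (7.94) and Derl2 (7.75) and the highest of Syvn1 (9.07). Since all 6 arrays labelled 10 weeks make up 1 run, age and run cannot be told apart.

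Within runs, Herpud1 followed genes of another arm of the stress response more closely than the other members. On residuals after run and serum over the 59 arrays, the 5 genes of the whole table most like Herpud1 were Atf4 (Pearson r = 0.92), the transcription factor that PERK raises, and 4 genes it is known to act on: Chac1, a glutathione-degrading enzyme (r = 0.87), Sesn2, a regulator of nutrient signalling (r = 0.87), Atf3, a stress transcription factor (r = 0.86), and Trib3, a pseudokinase (r = 0.84). Arrays of a run may share a culture, and the values are given as descriptions. For Atf4 the rank correlation was 0.91, r was 0.90 without the 2 arrays farthest in Atf4, and 0.86 after the mean of each run and serum was taken off. With the other members, Herpud1 had r between -0.29 (Xbp1) and 0.29 (Derl2). With Sel1l it was 0.16, 0.51 without the 2 arrays farthest in Sel1l, and -0.075 after the mean of each run and serum was taken off. With Hspa5, the main lumenal chaperone, it was -0.31.

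The differences of Atf4 can be set beside those of Herpud1 run by run. For Atf4 they were -0.65 in run B, -0.51 in run E, -0.50 in run D and -0.46 in run F. They were -0.22 in the 10-week run, -0.072 in run A, -0.070 in HB9MNs, -0.032 in the motorneuron run and 0.065 in run C. Chac1 had differences from -1.73 in run B to 0.15 in run C, with -0.017 in run A and 0.033 in HB9MNs. These values come from the same arrays as those of Herpud1.

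**Figure D4:**
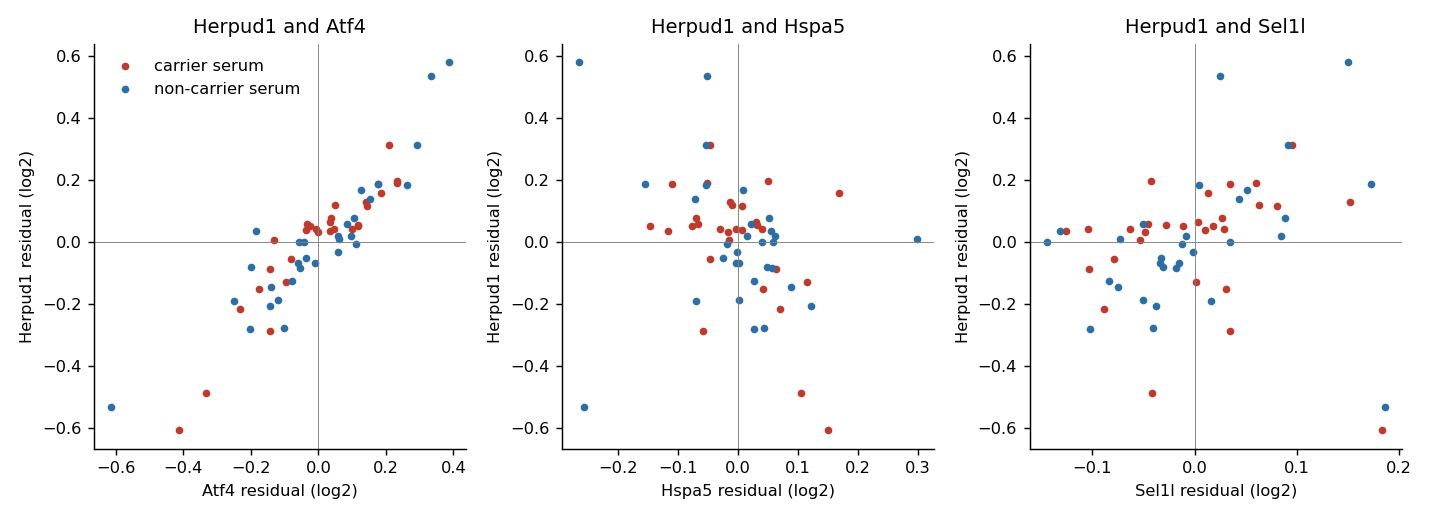
Residual log2 intensity of Herpud1 (vertical axis) against that of Atf4, Hspa5 and Sel1l (horizontal axes) after run and serum were taken off, 1 point per array, carrier serum in red and non-carrier serum in blue. The points lie along a line for Atf4 (r = 0.92) and scatter for Hspa5 (r = -0.31) and Sel1l (r = 0.16).

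Sel1l and the remaining members had other companions. The 3 genes most like Sel1l were Aldh3a2, a fatty aldehyde dehydrogenase (r = 0.77), Neo1, a guidance receptor (r = 0.76), and Aldh1l2, a mitochondrial folate enzyme (r = 0.73). Aldh1l2 was itself called lower (change -0.24, limma adjusted p = 0.00739), as was Aldh3a2 (-0.085, adjusted p = 0.0480), and Neo1 was not (-0.022, adjusted p = 0.434). Among the members the highest r was that of Syvn1 and Ern1 (0.56, and 0.33 without the 2 arrays farthest in Ern1). The lowest was that of Os9 and Xbp1 (-0.33).

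The members were set beside 5 other lists of the pathway, 90 measured genes in all, of which 13 were called lower and 4 higher. Of 35 other ER-associated degradation genes, 1 was called lower and 1 higher, beside 1.65% and 0.683% of all genes, with a median change of -0.015. The gene called lower was Man1b1, a mannosidase that trims glycoproteins (change -0.062, SE 0.016, limma adjusted p = 0.0218), and the gene called higher was Rnf5, a ubiquitin ligase (change 0.068, SE 0.020, adjusted p = 0.0495). Man1b1 was lower in 8 of 9 runs and Rnf5 higher in 8 of 9. A lower mean in at least 8 runs was found for 5.45% of all genes, and the share with a higher mean was not counted. Both calls were lost when run A, B, D, F or 10-week was left out. The lower count was also 0 with quantile normalization. The higher count was also 0 without the motorneuron run or run E and with arrays centred on their medians, and stayed at 1 in 16 of 59 cases with a single array left out. With the levels of 4 motor neuron genes added to the run block, 14 of the 35 genes were called lower and 3 higher, where 11.1% and 20.1% of all genes were, and with array weights 9 and 3. Of 15 genes of other sensors and their processing, 0 were called by limma and 6 had an unadjusted p under 0.05, beside 20.7% of all genes. The smallest p belonged to Tmbim6, a membrane protein that restrains IRE1 (change -0.060, p = 0.00558, adjusted p = 0.0987), and Creb3, a membrane-bound factor cut like ATF6 (change 0.11, p = 0.00616, adjusted p = 0.103).

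Of 12 genes of the ATF4 and CHOP arm, 11 were called lower and 0 higher, beside 1.65% and 0.683% of all genes. Their median change was -0.25. The largest changes were those of Slc7a11, a cystine transporter (-0.46, SE 0.11), Chac1 (-0.43, SE 0.10), Atf3 (-0.39, SE 0.097), Ddit3, which encodes CHOP (-0.29, SE 0.077), Trib3 (-0.28, SE 0.060) and Sesn2 (-0.25, SE 0.059), with limma adjusted p between 0.00570 and 0.0298. Cebpb, the gene not called, had a change of 0.024 (adjusted p = 0.810). The study had named lists of this arm from some of these arrays, and the list was drawn up here with that known. The count fell to 2 when run B, D or F was left out and to 4 when run E or the 10-week run was left out, and was 0 without runs E and F or in runs E and F alone.

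Of 14 lumenal chaperones and folding enzymes, 3 were called higher and 1 lower, beside 0.683% and 1.65% of all genes. Their median change was 0.031. Hspa5, also called BiP, was higher in 9 of 9 runs (change 0.097, SE 0.026, adjusted p = 0.0313), as was the disulfide isomerase Pdia4 (0.094, SE 0.026, adjusted p = 0.0363), while Hsp90b1 was higher in 8 of 9 (0.085, SE 0.022, adjusted p = 0.0228). P4hb, another disulfide isomerase, was lower in 9 of 9 runs (-0.097, SE 0.019, limma adjusted p = 0.00239). Of all genes, 5.45% had a lower mean in at least 8 of 9 runs, and the share with a higher mean was not counted. None of the 3 higher calls was left with arrays centred on their medians, with the 4 motor neuron genes beside the run, or without run B, D or 10-week. Of 14 measured translocon and signal peptidase genes (15 listed), 0 were called by limma and 2 had an unadjusted p under 0.05 (20.7% of all genes), Spcs1, a signal peptidase subunit (change -0.10, p = 0.00549, adjusted p = 0.0985), and Sec61g, a subunit of the channel (-0.072, p = 0.0168, adjusted p = 0.157).

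The motifs in the promoters fell differently over these lists. ERSE was found in 7 of the 11 chaperone genes with a promoter in the table, Hspa5 and Hsp90b1 among them, and in 0 of 12 of the ATF4 and CHOP arm. CARE was found in 5 of those 12 (Atf3, Chac1, Asns, Slc7a11 and Nupr1) and in 0 of the 11 chaperone genes. No other gene of the lists held ERSE-II. Of the 24 other degradation genes with a promoter in the table, Derl3 held ERSE, Ube2j1 and Vcp held UPRE, and Faf2 held CARE. The motifs and the lists were chosen by name for the same stress response. The contrast is therefore a description and lends no support to a regulator of these changes.

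**Figure D5:**
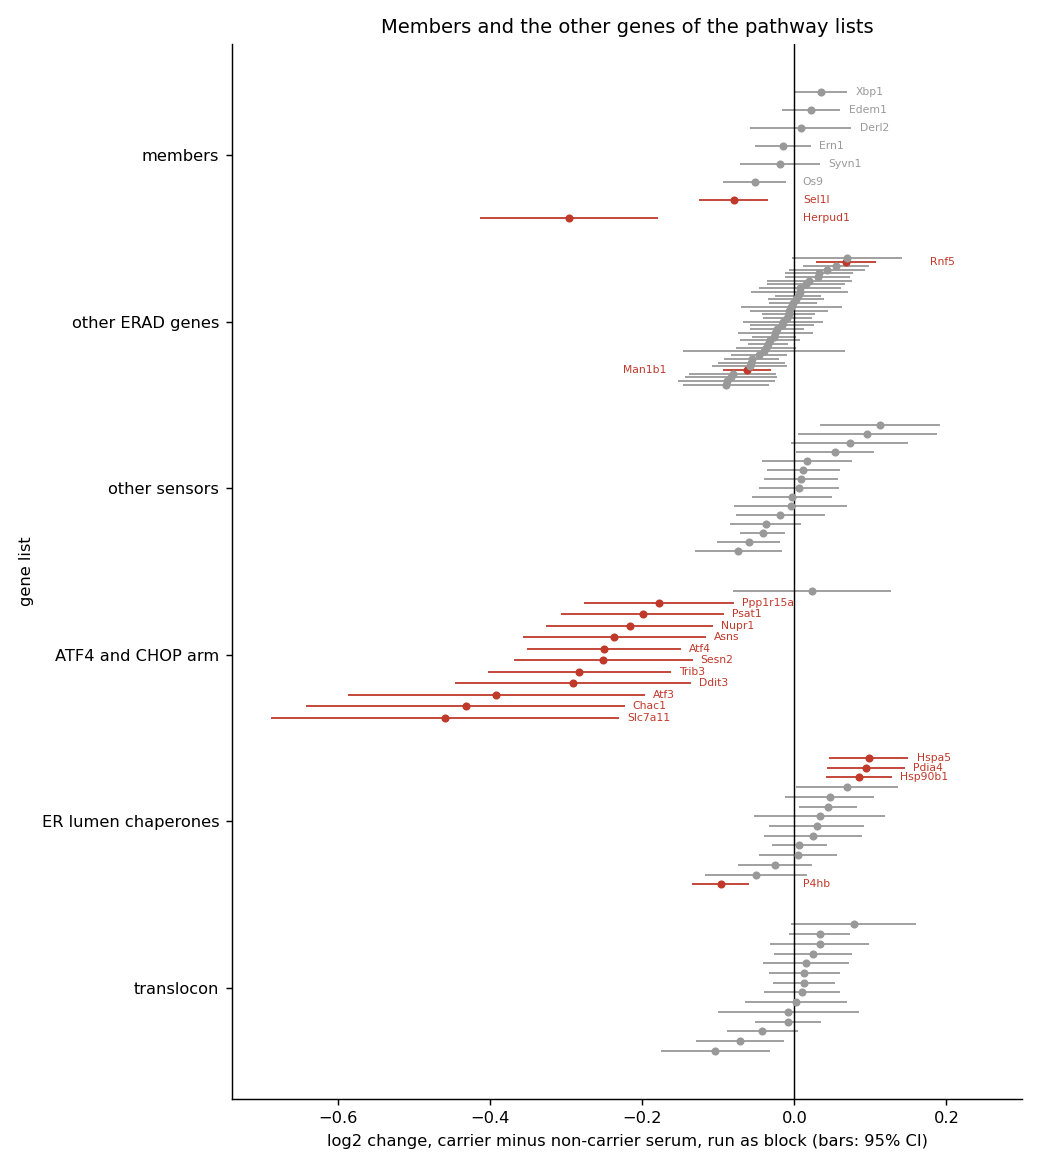
Log2 change, carrier minus non-carrier serum with the run as a block, of each gene in the 6 lists; points are changes, bars 95% intervals, and red marks an adjusted p at or under 0.05. Herpud1 (-0.30) lies within the range of the 11 red genes of the ATF4 and CHOP arm, from -0.46 upward, and the 35 other degradation genes lie between -0.090 and 0.069.

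The makeup of the cultures was checked with marker genes. Of 7 measured motor neuron markers 1 was called higher with carrier serum (Slc5a7, the choline transporter, change 0.15, adjusted p = 0.0410), and of 6 neuron markers 2 (Snap25, 0.074, adjusted p = 0.0166, and Stmn2, 0.061, adjusted p = 0.0400). The other neuron markers were not called and had changes near 0 in both directions: Tubb3 (-0.028), Elavl3 (-0.011), Map2 (1.6e-04) and Elavl4 (0.014). Over all genes 0.683% were called higher, and 20.7% had an unadjusted p under 0.05. Of the 7 motor neuron markers, 5 had such a p. Isl1 (0.053), Isl2 (0.094) and Slc5a7 were higher, and Lhx3 (-0.086) and Lhx4 (-0.046) were lower. No progenitor, pluripotent, endoderm, mesenchyme, astrocyte or blood marker was called by limma. In that order, 2, 2, 0, 2, 0 and 1 of them had an unadjusted p under 0.05. Of these, the progenitor markers Olig2 (-0.085) and Nkx6-1 (-0.083) were lower. The pluripotent markers Pou5f1 (0.12) and Nanog (0.11), the mesenchyme markers Col3a1 (0.071) and Prrx1 (0.13) and the blood marker Hbb-b1 (0.16) were higher. The summed intensity of the motor neuron markers ran from 4320 to 5786 with carrier serum and from 4295 to 5541 with non-carrier serum, and that of the progenitor markers from 2462 to 3958 and from 2594 to 3776. The factors Olig2 (change -0.085, adjusted p = 0.0936), Mnx1 (-0.035, adjusted p = 0.588), Isl1 (0.053, adjusted p = 0.114) and Lhx3 (-0.086, adjusted p = 0.105) did not pass. Their limma unadjusted p were 0.00466, 0.350, 0.00769 and 0.00643. A fit with them as covariates may therefore take off part of a serum difference. With these 4 genes as covariates beside the run, Herpud1 kept its change (-0.30, adjusted p = 0.00138). Sel1l (-0.090, adjusted p = 0.00919) and Os9 (-0.080, adjusted p = 0.0120) were called lower, and Syvn1 (0.060, adjusted p = 0.0441) and Xbp1 (0.057, adjusted p = 0.0324) were called higher. In that fit the members' share called higher, 2 of 8, stood beside 20.1% of all genes, and 11.1% were lower. In these mixed cultures fewer cells of a type and less RNA per cell cannot be told apart, and the part of the cell makeup in the members' changes was not tested.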

How the data were processed

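Gene expression was measured on 59 Affymetrix mouse exon arrays of embryoid bodies exposed to carrier (29) or non-carrier (30) serum. The deposited intensities are linear, not logged. The sample records name Affymetrix Expression Console and RMA as processing tools. The authors' methods describe RMA in the aroma.affymetrix package, averaging the exons of each gene. The authors had removed arrays called by Grubbs' test. The genome build behind the array annotation is not given in the sources used here. Log2 intensities (0 added) of all 19613 genes were fitted with limma 3.58.1 (R 4.3.3). The run entered as a block, tests were two-sided, and p-values were adjusted by Benjamini and Hochberg across the whole table and called at 0.05 or less. Runs were inferred from the array titles, for runs A to F from the order of the array numbers. Runs E and F were taken as the study's test arrays from an earlier analysis of these data, since the labels do not say so. The members and gene lists were chosen with earlier results of these data known. Named genes are the members, the called genes of each list (the 6 with the largest changes where more were called, and the 2 with the smallest p where none were), and the genes most like Herpud1 (5) and Sel1l (3). The fit was tested on simulated data. Alternatives covered the block, the 4 motor neuron genes Olig2, Mnx1, Isl1 and Lhx3 as covariates, normalization, filter, pseudocount (16), variance model, array weights, and left-out arrays and runs. The checks of residual correlations were added after seeing the data. The number of arrays limits the precision. Titles of 3 runs carry replicate numbers or letters, which the main fit did not use as pairs. Residual correlations of the 8 pairs with the same number or letter ran from -0.13 to 0.33. Such values cannot show whether those arrays were paired.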

Additional observations from a re-analysis of the deposited data

Results flagged for a closer look

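Within a run and serum group of 4 to 10 arrays, an array far from the others was looked for in each of the 8 genes, in 32 groups, of which chance gives about 1 in 20. In 3 groups the gap to the nearest array was large for the group's range. For Herpud1, 1 of the 4 non-carrier arrays of the motorneuron run measured 8.71 on the log2 scale, and the nearest other array 9.25. For Xbp1, the lowest of the 6 carrier arrays of run C measured 10.63, and the nearest 10.77. For Derl2, the highest of the 5 non-carrier arrays of run C measured 8.06, and the nearest 7.97.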

How the results depend on the processing

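The Herpud1 change was below 0 in all 83 alternatives, from -0.55 to -0.23, with adjusted p from 1.27e-04 to 0.845. It missed the threshold with no block (-0.31, adjusted p = 0.845), with the 4 motor neuron genes in place of the run (-0.34, adjusted p = 0.0858), without runs E and F (-0.23, adjusted p = 0.0718) and in runs E and F alone (-0.55, adjusted p = 0.198). Leaving out single arrays gave -0.32 to -0.27, and single runs -0.37 (run C) to -0.24 (run B), all past the threshold. For limits, the runs are inferred from titles, and run C may hold more than 1 batch of cells. With run C in 2 blocks, Herpud1 had a change of -0.30 (limma adjusted p = 0.00213) and Sel1l one of -0.081 (adjusted p = 0.0333). Runs E and F are only taken as the 12 arrays that the study did not use to choose Herpud1. The members were chosen here with earlier results of these data known, so no run is wholly free of that choice. The number of arrays and the signal of 1 value per gene limit what can be seen of small changes.

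Members called lower (2) came to 0 with no block, with the 4 genes in place of the run, without runs E and F and in those alone, and to 1 with arrays centred on their medians, quantile normalization, or any 1 run other than HB9MNs and C left out. They came to 3, with Os9, with the 4 genes beside the run and with array weights. Leaving out single arrays gave 1 to 2. Members called higher (0) came to 2 with the 4 genes beside the run. Of the pathway lists' 13 genes called lower, the count was 0 with no block, without runs E and F and in those alone, 31 with the 4 genes beside the run, 5 with them in its place, 25 with array weights, 3 without run B, D or F, 6 without run E and 5 without the 10-week run. Of their 4 called higher, it was 0 with no block, with the 4 genes in place of the run, with arrays centred, without runs E and F, in those alone and without run B, D or 10-week, 8 with the 4 genes beside the run or array weights, 2 without the motorneuron run, 1 without run A, E or F, and 1 (non-carrier replicate 28 left out) to 5 without single arrays.

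Over all genes, 323 were called lower and 134 higher. These counts were 0 and 0 with no block, 2174 and 3952 with the 4 genes beside the run, 50 and 4 with them in its place, 1440 and 1363 with array weights, 32 and 27 without runs E and F and 17 and 0 in those alone. They were 179 and 51 without run A, 123 and 45 without run B, 918 and 683 without run C, 81 and 25 without run D, 111 and 52 without run F, and 91 and 22 without the 10-week run. They were 510 and 145 with dim genes left out, 179 and 91 without run E, 441 and 206 with run C in 2 blocks, 396 and 320 without the 2 arrays called by Grubbs' test, and 379 and 248 without HB9MNs. Leaving out single arrays gave 238 to 529 lower (the highest without carrier replicate 12) and 85 (without carrier replicate 20) to 512 (without non-carrier replicate 14) higher. The causes were not tested.

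Uncalled members changed sign in some settings. Syvn1 was 0.060 with the 4 genes beside the run, 0.017 with them in its place, 0.0023 with array weights and 0.0018 without the Grubbs arrays. Derl2 was -0.013 with the 4 genes beside the run, -0.090 in runs E and F alone, -0.0059 without the motorneuron run, -0.011 without run D and -0.0011 to 0.024 without single arrays. Edem1 was -0.017 with the 4 genes in place of the run and -0.037 in runs E and F alone. Ern1 was 0.027 with the 4 genes beside the run, 0.0036 with array weights, 0.0013 without runs E and F and 0.00026 without run E. Xbp1 was -0.016 in runs E and F alone.

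A replicate block was used in the 3 runs with numbered or lettered replicates. With it, Herpud1 had a change of -0.30 (limma adjusted p = 0.00424) and Sel1l of -0.082 (adjusted p = 0.0357). The counts were 340 lower and 173 higher. In the list of other ER-associated degradation genes this block called 2 higher in place of 1, and it changed no call of a member.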

Other observations

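Relatives of the members were among the listed genes, and the values given here were chosen after they were seen. Herpud2, the paralog of Herpud1, had a change of -0.059 (SE 0.024, limma adjusted p = 0.168) and a lower mean with carrier serum in 8 of 9 runs. Erlec1, a lectin related to Os9, had a change of -0.081 (SE 0.028, adjusted p = 0.101) and a lower mean in 9 of 9 runs. Edem3, a relative of Edem1, had a change of 0.055 (SE 0.022, adjusted p = 0.145) and a higher mean in 8 of 9 runs, and Edem2 one of -0.0039 (SE 0.033, adjusted p = 0.955). Derl3, a derlin, had a change of 0.016 (SE 0.026, adjusted p = 0.739), and Atf6b, the paralog of Atf6, one of -0.018 (SE 0.029, adjusted p = 0.731). Eif2ak3, the gene of the sensor PERK, had a change of 0.0086 (SE 0.024, adjusted p = 0.855). None of these 7 genes passed the test. Of all genes, 5.45% had a lower mean in at least 8 of 9 runs, and the share with a higher mean was not counted.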
